A study of Arabidopsis thaliana with 54 samples.

Results

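The hypocotyl, the embryonic stem that carries the cotyledons, was compared after 1.5 h of simulated canopy shade with hypocotyls kept in control light for the same 1.5 h. The comparison takes the 3 arrays labelled hypocotyl, shade, 1.5 h and the 3 arrays labelled hypocotyl, control, 1.5 h, which are 6 of the 54 arrays of the series, and it was read on the 16746 of 38408 array features that the platform table pairs with exactly 1 gene. All seedlings were Arabidopsis thaliana of the accession Col-0, without a transgene or mutation named in the labels, grown in short days of 9 h light and 15 h dark and treated at an age of 1 day in closed glass desiccators. Shaded seedlings stood under a green filter at 40 µmol m-2 s-1 of photosynthetically active radiation, 3 µmol m-2 s-1 of blue light and a red to far-red ratio of 0.45. Control seedlings stood at 140 µmol m-2 s-1, 29 µmol m-2 s-1 of blue light and a ratio of 2.1. The filter thus lowered total light, blue light and the red to far-red ratio together, and their parts cannot be told apart. Each array held RNA of 2 pools of 25 seedlings, dissected with a needle after the roots had been cut away, from 3 independent experiments according to the labels' protocols.

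Plants sense a canopy through phytochromes, which read the ratio of red to far-red light, and through cryptochromes, which read blue light. In light that has passed through leaves, active phytochrome declines and the bHLH factors called PIFs become free to act, auxin made mainly in the cotyledons reaches the hypocotyl, and the hypocotyl elongates as its cell walls are loosened. Light-induced processes such as flavonoid synthesis run in the other direction in young seedlings.

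The shaded arrays were dimmer as a whole than the control arrays, and the number of genes called lower moved with how this was scaled. Median log2 values over the 16746 features with 1 gene lay between 4.04 and 4.11 in shade and between 4.26 and 4.43 in control. The median change over these features was -0.116 on the log2 scale. In the deposited values, 334 features rose (1.99% of those tested) and 1745 fell (10.4%) at an adjusted p below 0.05 in limma with Benjamini-Hochberg adjustment, so that 16.1% of the calls were rises. After quantile normalization over the hypocotyl arrays 617 rose (3.68%) and 730 fell (4.36%), a share of rises of 45.8%, and the median change was 0.013. Centring on 14 reference genes gave 536 rises and 779 falls (40.8% rises), with a median change of 0.008. Centring on array medians gave 1568 rises and 557 falls (73.8% rises), and left the median change at 0.134, above 0. The balance of rises and falls therefore turned with the scaling, while 333 rises (1.99%) and 547 falls (3.27%) were called under all 4 scalings. The 3 other scalings moved the median change upward, so a rise of the deposited values was all but sure to pass them. A call under all 4 scalings is therefore a check on falls and says little about rises. The 3 shaded and 3 control values did not overlap in 1261 features that were higher in shade (7.53%) and 3877 that were lower (23.2%). Features called both as deposited and after quantile normalization, with no overlap, numbered 325 rises (1.94%) and 673 falls (4.02%).

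**Figure D1:**
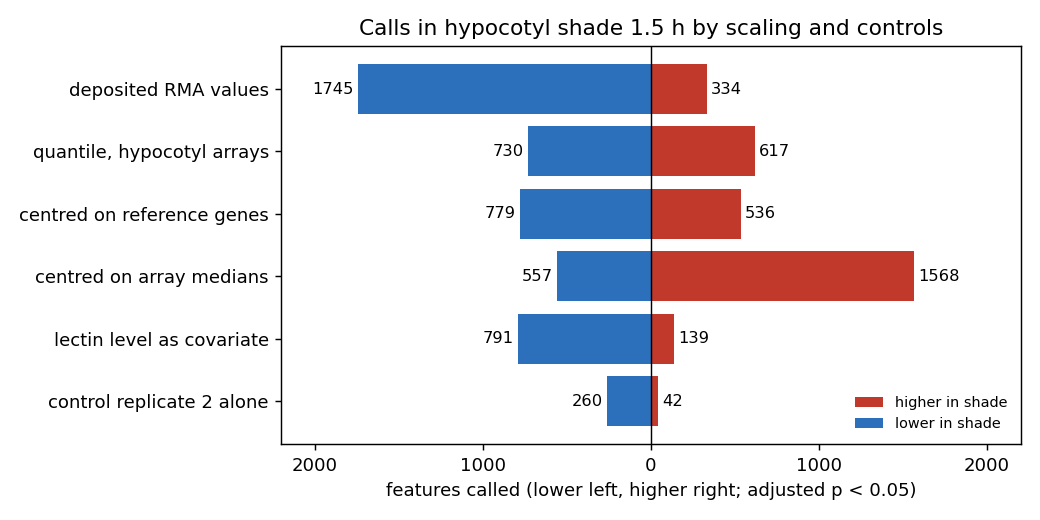
Features called in the hypocotyl after 1.5 h of shade, higher to the right and lower to the left of 0, under each scaling and with the controls treated differently. The bars of the deposited values lean to the left with 334 against 1745, and those of the median-centred values lean to the right with 1568 against 557.

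The control arrays differed among themselves as well. Replicates 1 and 3 of the control had high levels of several jacalin lectin genes that were low in control replicate 2 and on the shaded arrays. Of the 1745 falls, 99 (5.67%) lay at least 1 log2 unit higher in both of these controls than in control replicate 2, against 165 of all 16746 features (0.985%) and 0 of the 334 rises. With control replicate 2 as the only control, which is then assumed to vary like the other groups, 42 features rose (0.251%) and 260 fell (1.55%), and 39 rises and 217 falls were called in the deposited values, after quantile normalization and against this single control. Leaving out control replicate 3 alone brought the count to 1281, the lowest of the 6 counts with 1 array left out. Arrays correlated at r = 0.985 to 0.991 within shade, 0.983 to 0.985 within control and 0.970 to 0.986 between the groups.

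Marker lists of other organs were set against the hypocotyl label. The 4 genes listed for the shoot meristem averaged 3.35 to 3.98 per array in shaded and 3.27 to 3.95 in control hypocotyls. They averaged 5.17 to 5.55 in the cotyledon arrays of 1.5 h, which include the apex. This list took in the YABBY genes YAB3 and YAB5, so it does not measure meristem alone. The 6 stomatal lineage markers averaged 4.64 to 5.15 in shaded and 4.83 to 5.34 in control hypocotyls and 7.20 to 7.47 in the cotyledon arrays. Root hair genes were present in both groups despite the cut: EXPA7, EXPA18 and XTH26 averaged 5.50 to 7.08 in shaded and 5.44 to 7.10 in control hypocotyls, against 3.24 to 3.54 in cotyledons. None of these 3 genes was called, and the ranges of the groups overlapped. The 11 genes of the root jacalin and PYK10 group averaged 7.57 to 8.07 in shaded and 7.77 to 8.73 in control hypocotyls, which overlap, and 2 of them fell, 1 after quantile normalization. The 7 seed storage and late embryogenesis genes averaged 3.93 to 4.11 in shaded and 4.28 to 4.58 in control hypocotyls, with no overlap, and 2 of them fell, 1 after quantile normalization. Over all features 10.4% fell as deposited and 4.36% after quantile normalization. The part of these marker genes in the other results was not tested.

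Among the rises with a wide gap between the groups were those of small peptide genes and transcription factors. AT1G22690, a GASA peptide gene, stood at 3.92, 3.82 and 3.62 in shade, against 1.45, 1.43 and 1.49 in control. The 3 shaded arrays lay more than 2 log2 units above the controls, which were among the dim values of the array. The change was 2.33 ± 0.46 (SE), 5.03-fold, with an adjusted p of 6.2e-04, and 0.0559 against control replicate 2 alone. The other 7 measured GASA genes were not called, and their changes lay at or above -0.34.

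RTFL13, a member of the ROTUNDIFOLIA-like family of small peptides known to restrain cell proliferation along the organ axis, stood at 4.58, 4.45 and 3.86 in shade, against 1.98, 2.94 and 2.29 in control. It rose by 1.89 ± 0.33 (adjusted p = 1.1e-04), and its groups did not overlap. RTFL14 stood at 4.44, 4.81 and 4.12 in shade, against 3.97, 2.92 and 2.35 in control, a rise of 1.38 ± 0.40 (adjusted p = 0.019) that was lost on leaving out any of 3 arrays, with adjusted p up to 0.161. The other 4 measured members of the family were not called, and the family's median change was -0.24.

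BZIP34, a basic leucine zipper factor, stood at 8.56, 8.61 and 8.52 in shade, against 6.60, 7.47 and 7.13 in control. All shaded arrays were within 0.1 of each other, and the controls were lower and more spread. The rise was 1.50 ± 0.25 (adjusted p = 5.5e-05), 2.83-fold. Its close relative BZIP61 stood at 10.45, 10.61 and 10.74 in shade, against 9.73, 9.82 and 10.16 in control, a smaller rise of 0.70 ± 0.21 (adjusted p = 0.0256). The call of BZIP61 ended on leaving out any of 4 of the 6 arrays. Among the 19 measured basic leucine zipper factors, 2 rose and 4 fell, with a median change of -0.089. Over all features 1.99% rose and 10.4% fell.

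WRKY22, a WRKY factor best known from immune signalling, stood at 4.91, 4.99 and 4.83 in shade, against 3.49, 3.57 and 3.89 in control. It rose by 1.26 ± 0.24 (adjusted p = 3.9e-04) and was called under all 19 alternative settings, its highest adjusted p being 0.0291. It was the only riser among 20 measured jasmonate and defence genes, of which MYC4, a bHLH factor of jasmonate signalling (-0.68 ± 0.22), and THI2.2, a thionin (-0.98 ± 0.30), fell. Neither of these falls was called after quantile normalization. The number of falls was near the 10.4% of all features, of which 1.99% rose. Against control replicate 2 alone WRKY22 was still called, while RTFL13 (adjusted p = 0.126) and BZIP34 (adjusted p = 0.0876) were not.

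**Figure D2:**
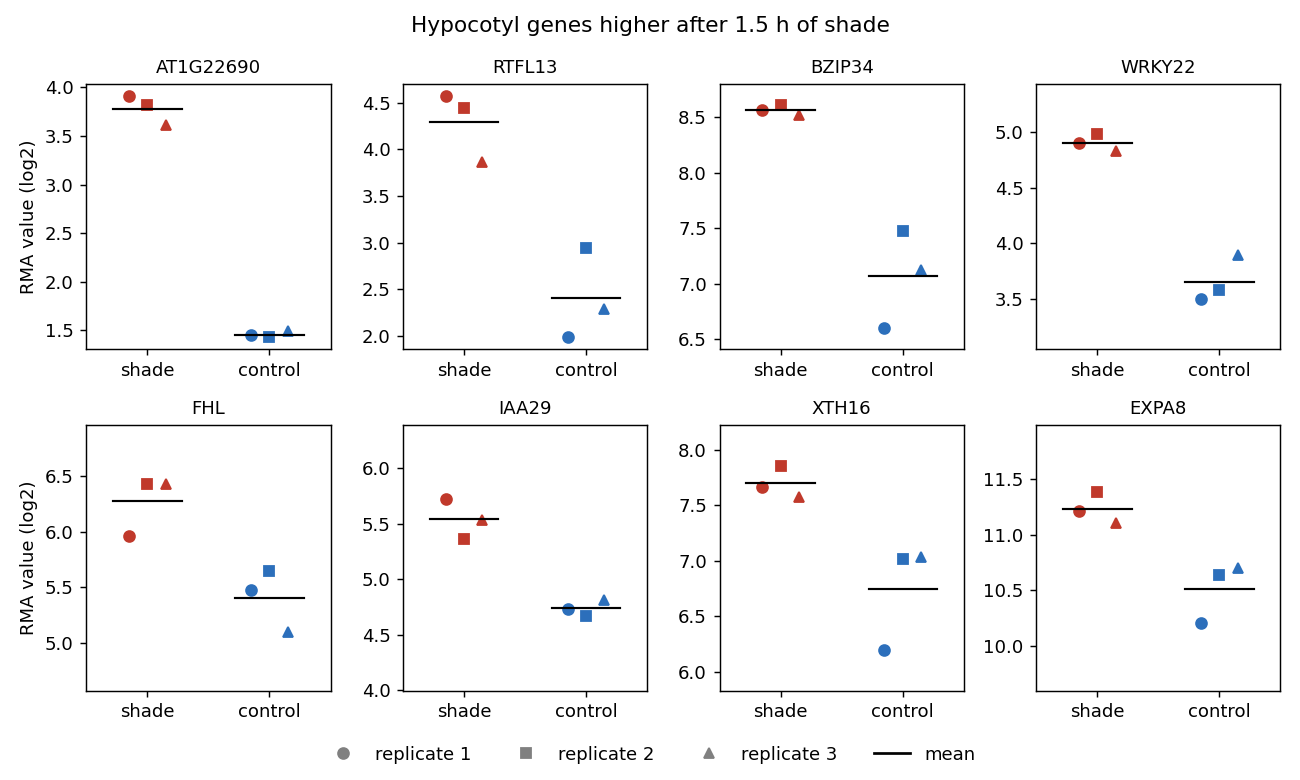
RMA values (log2) of 8 genes higher after 1.5 h of shade, one panel per gene, with shaded arrays on the left and control arrays on the right. Marker shapes stand for the replicate numbers and the bars for group means. In each panel the 3 shaded arrays lie above the 3 control arrays.

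In the phytochrome and shade pathway few genes had a named feature. Of 5 measured members of the list, FHL, which helps carry phytochrome A into the nucleus, rose, and none fell, with a median change of -0.037. Over all features 1.99% rose and 10.4% fell. FHL stood at 5.96, 6.43 and 6.44 in shade, against 5.47, 5.65 and 5.10 in control. Its rise was 0.87 ± 0.24 (adjusted p = 0.0128), and the call ended without shade replicate 2, shade replicate 3 or control replicate 3, with adjusted p up to 0.0929. HAT2, a homeodomain-leucine zipper factor induced by auxin and shade, stood at 10.20, 10.23 and 10.27 in shade, against 9.64, 9.66 and 9.96 in control, a difference of 0.48 ± 0.17 (adjusted p = 0.0543) that missed the threshold in the deposited values and passed it under the 3 other scalings, with an adjusted p of 0.0457 after quantile normalization. PIF7, the bHLH factor that drives rapid shade responses largely at the protein level, differed by -0.04 ± 0.25 (adjusted p = 0.949). BIM1, a bHLH partner in brassinosteroid response, differed by -0.20 (adjusted p = 0.338). The list's CRK feature belongs to AT4G01710 (CROOKED), an actin cytoskeleton locus outside this pathway, and differed by -0.28 (adjusted p = 0.524). It still counts among the 5 members and in their median.

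Of 24 measured auxin genes 1 rose and 1 fell, against 1.99% rises and 10.4% falls over all features. The median change was 0.19, against -0.116 over all features. After quantile normalization 3 rose and 1 fell, against 3.68% and 4.36% of all features. IAA29, an Aux/IAA repressor that marks the early auxin response to shade, stood at 5.72, 5.37 and 5.54 in shade, against 4.73, 4.67 and 4.82 in control, with no overlap. It rose by 0.80 ± 0.26 (adjusted p = 0.035), and leaving out any of 5 of the 6 arrays ended the call, with adjusted p up to 0.126. The SAUR gene AT4G34800 stood at 5.42, 5.45 and 6.04 in shade, against 4.88, 4.91 and 4.87 in control, and its difference of 0.75 ± 0.31 had an adjusted p of 0.106 as deposited, 0.0449 after quantile normalization and 0.0298 after centring on array medians. GH3.3, an enzyme that conjugates auxin to amino acids, had the highest difference of the list at 1.29 without being called (adjusted p = 0.115).

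The remaining auxin genes show how mixed the group was. Among the auxin-synthesis flavin monooxygenases, YUC6 differed by 0.41, YUC4 by 0.33, YUC2 by -0.25 and YUC11 by -0.40, none called, with the lowest adjusted p for YUC11 at 0.0559. The other conjugating enzymes GH3.1 (0.35), WES1 (0.29), GH3.9 (0.23), GH3.4 (0.07) and GH3.17 (-0.23) were not called either. The Aux/IAA genes IAA20 (0.43), IAA18 (0.10), IAA30 (-0.00), IAA31 (-0.17), IAA15 (-0.21) and IAA34 (-0.57) were not called, nor were the SAUR genes AT3G53250 (0.51), AT2G18010 (0.42), AT1G43040 (0.14) and AT1G19840 (-0.38). The single fall, that of IAA33 (2.29, 2.64 and 2.23 in shade, against 3.81, 2.55 and 3.83 in control), followed the 2 lectin-high controls, and its adjusted p was 0.873 against control replicate 2 alone.

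Of 34 measured expansins and xyloglucan endotransglucosylases/hydrolases (XTHs), which loosen the wall or cut and rejoin its xyloglucan, 4 rose and 4 fell, with a median change of -0.059, against 1.99% rises and 10.4% falls over all features, so the number of falls was near the background. After quantile normalization 6 rose and 2 fell, and after centring on medians 7 rose and none fell. The same 4 rises but no fall were called under all 4 scalings, a screen that nearly every rise of the deposited values passes. XTH16 stood at 7.67, 7.86 and 7.58 in shade, against 6.20, 7.02 and 7.03 in control, a rise of 0.95 ± 0.31 (adjusted p = 0.0369). EXPA8 stood at 11.21, 11.38 and 11.11 in shade, against 10.20, 10.64 and 10.70 in control, a rise of 0.72 ± 0.24 (adjusted p = 0.0391). Control replicate 1 was the lowest array for both genes. The call of XTH16 ended on leaving out any of 4 arrays and that of EXPA8 on leaving out any of the 6, with adjusted p up to 0.223 and 0.188.

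XTH33 (0.65 ± 0.21) and the beta-expansin EXPB2 (0.72 ± 0.24) also rose, EXPB2 at a level near the floor with 2.52, 3.09 and 2.95 in shade, against 2.00, 2.27 and 2.12 in control. Each of these 2 calls ended on leaving out any of 4 arrays. EXPA16 (0.65) and the expansin-like EXLA1 (0.89) were not called in the deposited values, and were called after quantile normalization and after centring on array medians. EXGT-A3, an XTH, stood at 7.21, 7.15 and 7.20 in shade, against 7.69, 7.87 and 7.97 in control, a fall of 0.66 ± 0.15 on the log2 scale (adjusted p = 0.00291) that held without each array in turn. XTH32 differed by -0.56 ± 0.16, EXPA9 by -0.85 ± 0.27 and EXPB5 by -0.92 ± 0.25, and these falls were each lost without at least 2 of the arrays. The remaining members were not called in the deposited values, and their differences lay between -0.89 for EXPA23 and 0.58 for EXLA2. Among them XTH18 and XTH19 differed by 0.05 and 0.04.

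Among 37 measured genes of wall polymer synthesis 3 rose and 4 fell, with a median change of -0.016, and the number of falls was near the 10.4% of all features. Under all 4 scalings 3 rises and 1 fall were called, and nearly every rise of the deposited values passes that screen. CSLB03, a cellulose synthase-like gene, stood at 6.21, 5.65 and 6.33 in shade, against 7.99, 8.12 and 8.02 in control. Its fall of 1.98 ± 0.29 on the log2 scale, 3.95-fold (adjusted p = 8.9e-06), held under all 19 alternative settings, with adjusted p up to 0.0123. CSLC04, a glucan synthase of the xyloglucan backbone, stood at 10.87, 10.99 and 10.86 in shade, against 10.08, 10.46 and 10.46 in control, a rise of 0.58 ± 0.17 (adjusted p = 0.0207). CSLC12 of the same family rose by 0.55 ± 0.19 (adjusted p = 0.0432). The call of CSLC04 ended without shade replicate 2 or control replicate 1, and that of CSLC12 on leaving out any of 5 arrays. TBL34, a wall xylan acetyltransferase, stood at 5.94, 6.19 and 6.09 in shade, against 5.38, 5.13 and 5.39 in control, and its rise of 0.77 ± 0.18 held against control replicate 2 alone (adjusted p = 0.0459). TBL23, TBL31 and TBL16 fell by 0.80, 0.75 and 0.43 on the log2 scale, and only TBL23 was also called after quantile normalization. GH9B6, an endoglucanase, fell by 1.75 ± 0.26, with 2.19, 3.12 and 2.17 in shade and 4.27, 3.43 and 5.03 in control. Control replicate 2 was the lowest control, and against it alone the difference of GH9B6 was -0.94 (adjusted p = 0.126).

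Of 8 measured genes of the flavonoid and anthocyanin list 3 fell and none rose under all 4 scalings, against 3.27% and 1.99% of all features. The median change was -0.74, against -0.116 over all features. CHIL, a chalcone isomerase-like protein that raises flux into flavonoid synthesis, stood at 6.19, 5.91 and 6.37 in shade, against 7.84, 7.76 and 8.26 in control, a fall of 1.80 ± 0.23 on the log2 scale, 3.48-fold (adjusted p = 1.1e-06). UGT78D1, which adds rhamnose to flavonols, stood at 3.28, 3.48 and 3.63 in shade, against 4.76, 5.00 and 5.04 in control, a fall of 1.47 ± 0.19 (adjusted p = 9.8e-07). UGT78D2, which adds glucose to flavonols and anthocyanidins, stood at 4.72, 4.10 and 4.40 in shade, against 5.33, 5.34 and 5.59 in control, a fall of 1.02 ± 0.22 (adjusted p = 0.00192). In all 3 genes every shaded array lay below every control array. CHIL and UGT78D1 were called under all 19 alternatives, and UGT78D2 was not called against control replicate 2 alone (adjusted p = 0.137).

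The anthocyanin enzymes further down the pathway had spread too wide for a call. DFR, dihydroflavonol reductase, stood at 9.34, 8.40 and 9.87 in shade, against 9.82, 9.84 and 10.88 in control, and its difference of -0.98 ± 0.68 had an adjusted p of 0.384. UF3GT, an anthocyanin glycosyltransferase, differed by -0.51 ± 0.56 (adjusted p = 0.622), and the groups overlapped in both genes. UGT78D3 (-0.17) and BAN (0.03) were near the floor and not called. The list's CHI feature belongs to AT2G43570, which is not the chalcone isomerase locus and was taken up by its symbol alone, and it differed by -0.38 (adjusted p = 0.462). Among 51 measured UDP-glycosyltransferase genes as a whole, 3 rose and 3 fell, against 1.99% rises and 10.4% falls over all features. UGT89B1, a flavonol glucosyltransferase, rose by 0.84 ± 0.21, with 4.41, 4.27 and 4.12 in shade and 3.36, 3.48 and 3.44 in control.

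**Figure D3:**
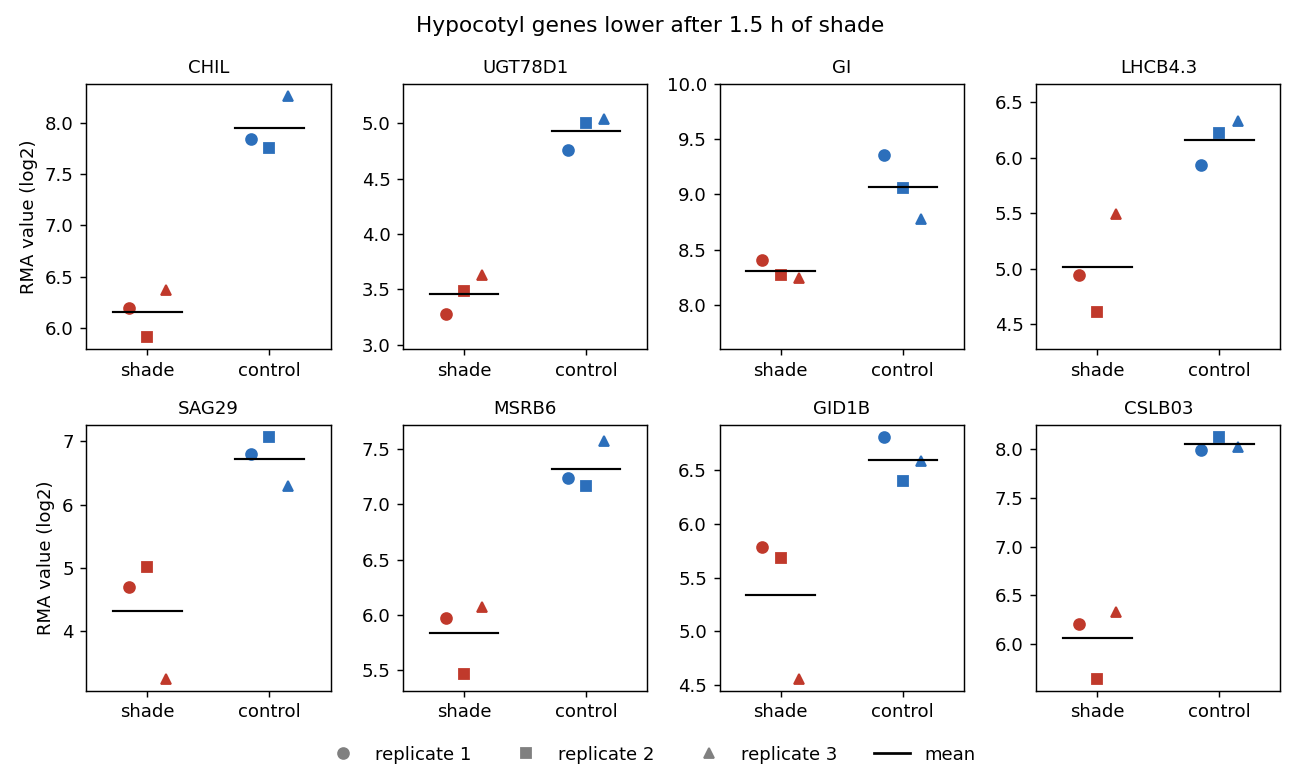
RMA values (log2) of 8 genes lower after 1.5 h of shade, with shaded arrays on the left and control arrays on the right of each panel. Marker shapes stand for the replicate numbers and the bars for group means. The 3 shaded arrays lie below the 3 control arrays in each panel, with the widest spread within shade in SAG29 and GID1B.

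Single genes of light signalling fell. HYH, a close relative of the photomorphogenesis factor HY5, stood at 6.98, 7.05 and 6.81 in shade, against 7.44, 7.62 and 7.74 in control, a fall of 0.65 ± 0.16 on the log2 scale (adjusted p = 0.00374). This call was lost after centring on array medians and against control replicate 2 alone (adjusted p = 0.112). AFR, an F-box protein of phytochrome A signalling, has 2 features: the brighter stood at 7.93, 7.84 and 7.84 in shade, against 8.66, 8.41 and 8.79 in control, and the dimmer at 4.18, 4.24 and 4.32 in shade, against 5.69, 5.71 and 6.03 in control. Both fell, by 0.75 and 1.56 on the log2 scale. GI, a clock component that also acts in flowering, stood at 8.41, 8.27 and 8.24 in shade, against 9.36, 9.06 and 8.78 in control, a fall of 0.75 ± 0.15 (adjusted p = 7.3e-04). It was the one of 7 measured clock genes that fell under all 4 scalings, against 3.27% of all features.

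LHCB4.3, a minor antenna protein of photosystem II, stood at 4.94, 4.61 and 5.49 in shade, against 5.93, 6.22 and 6.33 in control, a fall of 1.15 ± 0.21 (adjusted p = 2.1e-04) called under all 19 alternatives. The other antenna genes were bright and were not called: LHB1B2 differed by 0.10, LHCB4.2 by 0.18 and LHCB4.1 by -0.19. None of 11 measured photosystem and Calvin cycle genes was called in the deposited values, with a median change of -0.078. Of 7 chlorophyll synthesis genes, GSA1, which makes the precursor aminolevulinate, fell by 0.60 ± 0.13 (adjusted p = 0.00201), with 8.18, 7.98 and 8.24 in shade and 8.43, 8.83 and 8.95 in control, and that call was lost after centring on array medians. CHLM, the magnesium protoporphyrin methyltransferase, rose by 0.37 ± 0.11 (adjusted p = 0.0183), and that call ended on leaving out any of 3 arrays.

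All 3 plastid chaperonin genes that were measured fell at their brightest feature, against 10.4% of all features. The genes have 4 features, of which 3 fell under all 4 scalings, so 1 gene has a dimmer feature that was not called lower. Cpn60beta3 stood at 5.71, 5.25 and 4.84 in shade, against 6.91, 6.05 and 6.66 in control, a fall of 1.27 ± 0.22 on the log2 scale (adjusted p = 9.4e-05). Cpn60beta2 fell by 0.96 ± 0.23 (adjusted p = 0.00447) and Cpn60beta4 by 0.87 ± 0.17 (adjusted p = 6.6e-04). These proteins form the folding chamber of the chloroplast, and the family was taken up after the values had been seen. Against control replicate 2 alone Cpn60beta4 was called, and Cpn60beta3 (adjusted p = 0.183) and Cpn60beta2 (adjusted p = 0.16) were not. MSRB6 and MSRB3, methionine sulfoxide reductases that repair oxidized proteins, fell as well. MSRB6 stood at 5.98, 5.47 and 6.07 in shade, against 7.23, 7.17 and 7.57 in control (-1.49 ± 0.20, adjusted p = 2.8e-06), and MSRB3 at 6.27, 6.55 and 6.38 in shade, against 7.90, 7.54 and 7.51 in control (-1.25 ± 0.19, adjusted p = 1.7e-05). The other 5 measured reductase genes were not called in the deposited values. Among them MSRB9 differed by 1.10 (adjusted p = 0.0556) and was called higher after centring on array medians and on reference genes. Of the 7 measured genes 2 fell, against 10.4% of all features, and the family too was taken up after the values had been seen.

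Of 28 measured genes of sugar transport and starch 6 fell, against 10.4% of all features, with a median change of -0.25. Under all 4 scalings 4 of them fell, against 3.27% of all features. None rose in the deposited values, and 2 rose after centring on array medians. SAG29, the sucrose exporter also named SWEET15, stood at 4.70, 5.01 and 3.25 in shade, against 6.80, 7.07 and 6.29 in control, a fall of 2.40 ± 0.38 on the log2 scale, 5.27-fold (adjusted p = 3.0e-05). SWEET13, another sucrose exporter, stood at 2.23, 2.11 and 2.09 in shade, against 4.27, 4.17 and 2.55 in control, so that control replicate 3 lay near the shaded arrays. It fell by 1.52 ± 0.30 (adjusted p = 5.2e-04). SWEET1, a glucose transporter, stood at 5.54, 5.19 and 5.35 in shade, against 5.96, 6.65 and 6.52 in control, a fall of 1.02 ± 0.27 (adjusted p = 0.00832). The calls of SWEET3 and SWEET10 were lost after quantile normalization. APL4, a subunit of the starch-synthesis enzyme ADP-glucose pyrophosphorylase, fell by 1.14 ± 0.29 (adjusted p = 0.00664). Against control replicate 2 alone SAG29 and SWEET13 were called, and SWEET1 (adjusted p = 0.0619) and APL4 (adjusted p = 0.236) were not.

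Of 6 measured gibberellin genes 2 fell, against 10.4% of all features, and both were receptors. GID1B, a gibberellin receptor, stood at 5.79, 5.68 and 4.56 in shade, against 6.81, 6.41 and 6.59 in control, a fall of 1.26 ± 0.27 (adjusted p = 0.00127), and GID1A fell by 0.60 ± 0.17 (adjusted p = 0.0143) but not after quantile normalization. ARR15, a type-A response regulator induced by cytokinin, stood at 2.51, 2.203 and 2.99 in shade, against 4.34, 3.80 and 4.96 in control, a fall of 1.80 ± 0.41 (adjusted p = 0.00269). The other 7 measured response regulators were not called. None of 5 measured ethylene synthesis and signalling genes was called in the deposited values, nor was any of 12 touch, wounding and early stress genes. Among 8 measured heat shock genes 2 fell, against 10.4% of all features, and 1 fell after quantile normalization. That gene, AT5G48570, stood at 4.89, 4.57 and 5.26 in shade, against 6.46, 5.84 and 6.70 in control (-1.42 ± 0.28, adjusted p = 5.4e-04). Against control replicate 2 alone the adjusted p was 0.162 for GID1B, 0.325 for ARR15 and 0.247 for AT5G48570.

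Several falls with a wide gap between the groups were those of genes without a symbol. AT1G68620 stood at 2.92, 2.97 and 2.54 in shade, against 5.24, 5.55 and 5.57 in control, a fall of 2.64 ± 0.17 on the log2 scale, 6.24-fold (adjusted p = 1.5e-14). AT3G51750 fell by 2.17 ± 0.23, AT3G44450 by 2.09 ± 0.22, AT3G04050 by 2.05 ± 0.23 and AT1G52990 by 1.93 ± 0.19. In each of these genes the lowest control array exceeded the highest shaded array by at least 1 log2 unit. AT3G14395, AT4G24410, AT1G70000 and AT2G15020 fell by 1.91, 1.66, 1.63 and 1.60. Of the rises without a symbol, AT1G49032 stood at 5.22, 5.10 and 4.41 in shade, against 3.57, 3.12 and 2.69 in control (1.78 ± 0.30), and AT5G61560 at 4.67, 4.59 and 4.63 in shade, against 3.03, 3.19 and 3.19 in control (1.49 ± 0.18). AT3G06990 rose by 1.39 ± 0.34, AT3G52170 by 1.39 ± 0.22, AT4G21745 by 1.33 ± 0.27 and AT5G61950 by 1.32 ± 0.33. AT3G48390, AT4G16000 and AT2G43310 rose by 1.17, 1.15 and 1.15.

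The falls with the largest size were those of genes high in only 2 of the 3 control arrays. The jacalin lectin AT1G52060 stood at 1.85, 1.88 and 1.55 in shade, against 7.98, 2.17 and 8.85 in control, a difference of -4.58 ± 1.15. Its neighbour in name AT1G52050 stood at 1.50, 1.58 and 1.46 in shade, against 7.37, 1.91 and 7.50 in control, a difference of -4.08 ± 0.98. AT3G27950 stood at 2.04, 2.67 and 1.78 in shade, against 7.82, 3.11 and 7.04 in control (-3.83 ± 0.73). Control replicate 2 stood close to the shaded arrays in all 3 genes. Against control replicate 2 alone their adjusted p were 0.938, 0.931 and 0.681. Leaving out control replicate 1 or 3 ended the calls of AT1G52060 and AT1G52050, while that of AT3G27950 held without each array in turn.

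The same array pattern ran through AT1G52070, AT2G25980, the SKU5-similar genes sks15 and sks16, ATGSTF13, a glutathione S-transferase, and SCPL15, a serine carboxypeptidase-like gene. sks15 stood at 1.85, 2.75 and 2.80 in shade, against 6.84, 2.75 and 7.19 in control, and sks16 at 2.18, 2.50 and 2.25 in shade, against 6.63, 3.24 and 6.19 in control. Their adjusted p against control replicate 2 alone were 0.924 and 0.703. Of 32 measured jacalin lectins 8 fell and none rose in the deposited values, against 10.4% falls and 1.99% rises over all features. After centring on array medians 4 fell and 2 rose, against 557 and 1568 of all 16746 features. The mean level of the family was 3.52, 3.67 and 3.50 in shade, against 4.34, 3.69 and 4.39 in control. The beta-glucosidases BGLU21 and BGLU22 showed the same split among the control arrays, with no call. BGLU21 stood at 4.46, 7.11 and 3.44 in shade, against 9.07, 3.84 and 8.40 in control. Unlike in the genes above, its shade replicate 2 was high as well. PYK10, the main beta-glucosidase of the endoplasmic reticulum bodies of seedlings, was bright on all 6 arrays and differed by 0.04. Whether the tissue taken with the needle differed between these arrays was not tested.

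**Figure D4:**
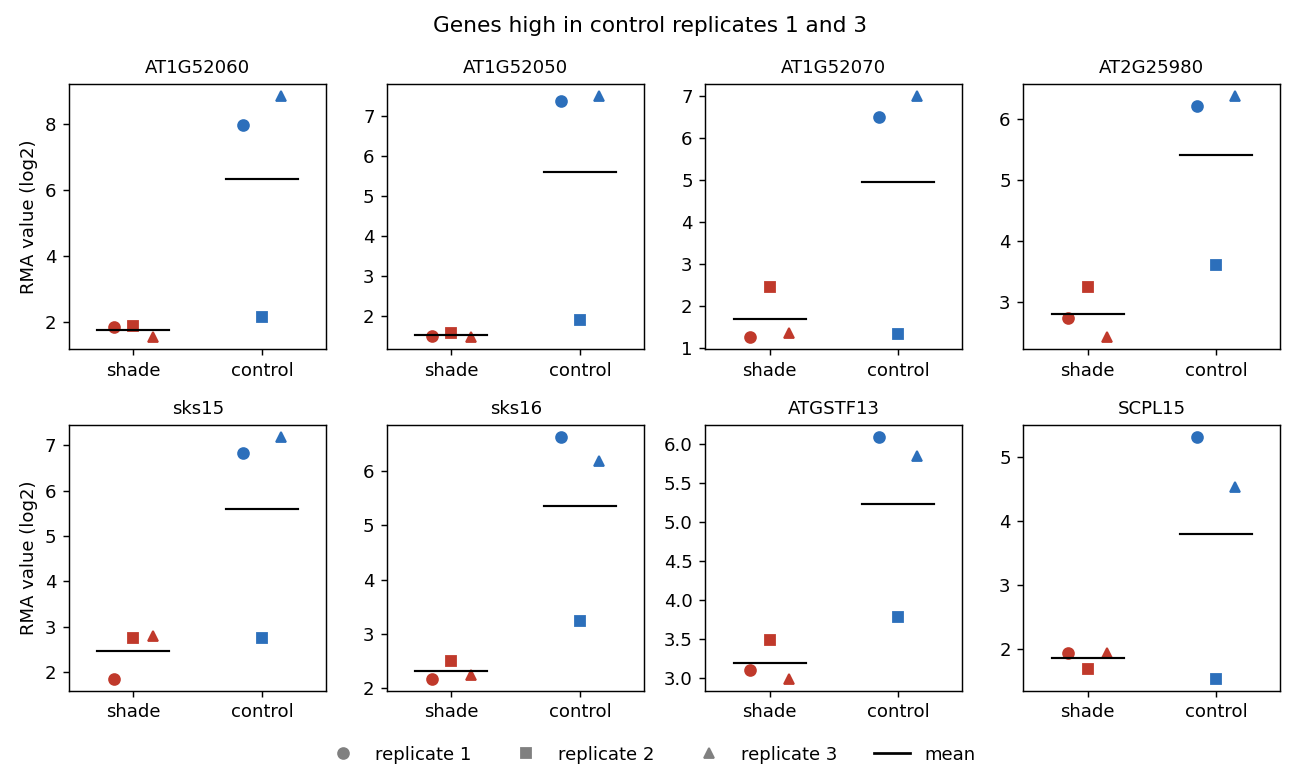
RMA values (log2) of 8 genes that differ between the control arrays, with shaded arrays on the left and control arrays on the right. In each panel the square of control replicate 2 lies nearer to the shaded arrays than to control replicates 1 and 3, whose circle and triangle lie above.

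Ethylene-treated hypocotyls of 1.5 h stood in the control light with 1 µl of ethylene per litre. They share the control arrays with this comparison, so values are given side by side and read no further. CSLB03 differed from control by -1.98 in shade and -1.80 under ethylene, IAA33 by -1.01 and -0.87, and IQD16 by -1.30 and -1.29. XTH16 differed by 0.95 in shade and -1.40 under ethylene, and XTH33 by 0.65 and -0.79. CHIL differed by -1.80 in shade and -0.23 under ethylene.

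Later harvests used their own control arrays, but those of 13.5 h were split by lectin level as well. Their mean jacalin lectin levels were 4.27, 3.63 and 4.07, against 3.39, 3.44 and 3.42 in shade of 13.5 h. AT1G52050 and AT1G52060 were again called lower at 13.5 h, by 3.90 and 3.98 on the log2 scale. The controls of 25.5 h stood at 3.37, 3.40 and 3.34. The part of this split in the falls shared with 13.5 h was not tested. Of the 334 rises at 1.5 h, 84 were called higher at 13.5 h (25.1%, against 6.1% of all features) and 139 at 25.5 h (41.6%, against 7.9%), while 13 and 7 were called lower. Of the 1745 falls, 185 were called lower at 13.5 h (10.6%, against 4.66%) and 331 at 25.5 h (19%, against 7.52%), while 54 and 32 were called higher. The harvest at 13.5 h fell in the dark period.

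Several early risers grew with time in shade. BZIP34 differed by 1.50, 1.62 and 2.74 at 1.5, 13.5 and 25.5 h, and BZIP61 by 0.70, 1.38 and 3.88. FHL differed by 0.87, 1.27 and 2.09, and XTH16 by 0.95, 0.95 and 3.19. RTFL13 differed by 1.89, 0.03 and 3.65, so that its rise was seen at both harvests in the light and not in the dark. AT1G22690 was not higher at the later harvests, with changes of 2.33, -1.39 and -0.13, and the difference between 25.5 h and 1.5 h was -2.46 (adjusted p = 0.0121). IAA29 differed by 0.80, 1.48 and 0.50.

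Among the falls, CSLB03 stayed low with -1.98, -2.24 and -2.68, and CHIL with -1.80, -1.24 and -1.17. UGT78D1 differed by -1.47, 0.49 and -1.45 and SAG29 by -2.40, 0.08 and -3.82, lower at both harvests in the light. MSRB6 differed by -1.49, -0.09 and -0.18, and its responses at 25.5 h and 1.5 h differed by 1.31 (adjusted p = 0.0021). DFR, not called at 1.5 h, differed by -3.39 at 13.5 h and -4.53 at 25.5 h. Over all features 1183 responses were higher and 316 lower at 25.5 h than at 1.5 h (7.06% and 1.89%). This balance turned with the scaling, to 595 higher and 562 lower after quantile normalization, 506 and 674 after centring on array medians, and 427 and 896 after centring on reference genes.

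**Figure D5:**
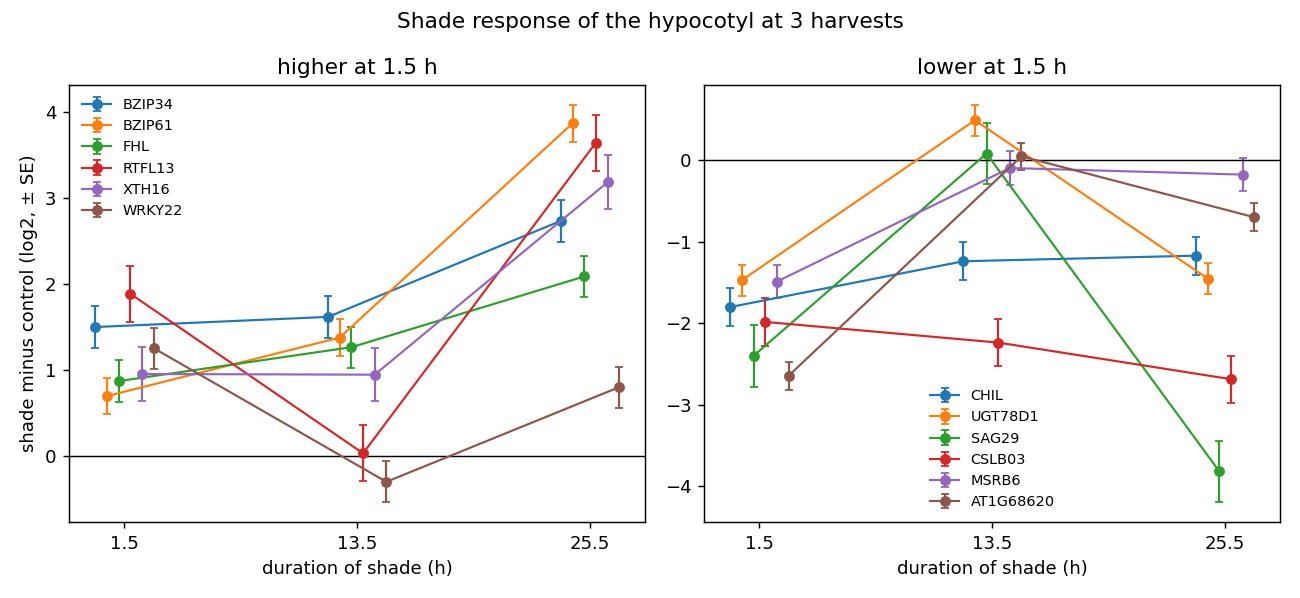
Shade minus control in the hypocotyl (log2, ± SE of the limma fit) at 1.5, 13.5 and 25.5 h for 6 genes higher and 6 genes lower at 1.5 h. BZIP34, FHL and CSLB03 keep their direction at all 3 harvests, while RTFL13, SAG29 and UGT78D1 are near 0 or turned at 13.5 h.

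The cotyledons of the same seedlings, harvested with the shoot apex, gave far fewer calls at 1.5 h, with 35 features higher (0.209%) and 56 lower (0.334%). Of the hypocotyl's 334 rises 7 were called higher there, and of its 1745 falls 31 were called lower. The organ difference itself, hypocotyl response minus cotyledon response, was called for 68 features upward (0.406%) and 289 downward (1.73%). It uses the same 6 hypocotyl arrays and carries their scaling: after quantile normalization over all arrays 92 were upward and 67 downward. AT1G68620 differed by -0.31 ± 0.17 in the cotyledon, and its organ difference was -2.33 ± 0.24 (adjusted p = 5.9e-08). BZIP34 differed by 0.12 ± 0.25 in the cotyledon, with an organ difference of 1.38 (adjusted p = 0.0266), and MSRB6 by -0.25 ± 0.20, with an organ difference of -1.24 (adjusted p = 0.0149). IAA29 was called in the cotyledon as well, at 1.31 ± 0.26, and its organ difference of -0.51 was not called (adjusted p = 0.542). LHCB4.3 differed by -0.82 ± 0.21 in the cotyledon, with an organ difference of -0.33 (adjusted p = 0.645).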

How the data were processed

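The authors deposited log2 values. The submitters' processing notes name RMA, Expression Console 1.4 and Transcriptome Analysis Console 3.0 as tools. RMA corrects background, equalizes distributions and summarizes probes. The genome build is not given in the sources used here, and no coordinates are printed. Symbols come from the platform annotation, updated through gene identifiers (16601 of 16746 features matched). All 54 arrays entered 1 limma fit (version 3.58.1, R 4.3.3) that gave each of the 18 groups its own mean, Benjamini-Hochberg adjustment over 17504 features with a gene, and calls at 0.05. A gene with several features is represented in lists by its brightest. The comparison, gene lists and named genes were chosen with earlier results of these data known. Named genes are the 12 most widely separated rises and falls called in both scalings without overlap, the 3 largest in each direction, list members, and the genes leading the organ and time differences. In a list, up to 4 called per direction and 2 uncalled members qualified, and all in the shade, auxin and expansin and XTH lists. MSRB3, UGT89B1, GH9B6 and others of families added later follow the same rule. These families, taken up after the values had been seen, include GASA and ROTUNDIFOLIA-like peptides, basic leucine zipper factors, jacalin lectins and UDP-glycosyltransferases. They also include the GH9, TBL, SWEET, IQ-domain and TON1 recruiting motif genes, response regulators, plastid chaperonins and methionine sulfoxide reductases. The shares of their members that were called are no test of these families. UGT78D3, BAN, the CHI feature, LHCB4.2, SWEET10, BGLU21, BGLU22 and the brighter AFR feature lie outside this rule and were named beside their lists or genes. The script was tested on simulated data. Replicates are arrays of independent experiments, but the labels do not tie numbers to experiments.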

Additional observations from a re-analysis of the deposited data

Results flagged for a closer look

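These results were taken up because the shade response of the hypocotyl at 1.5 h differed from another response by a test of the difference itself. Between organs 357 features differed and between 25.5 h and 1.5 h 1499 did, in limma with Benjamini-Hochberg adjustment.

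Hypocotyl minus cotyledon differences were -2.33 for AT1G68620, -2.27 for AT3G04050 and -1.72 for AT1G15640 among the falls. They were 2.09 for AT3G52170, 1.19 for AT3G25850 and 0.99 for AT5G22040 among the rises. In the cotyledon AT3G52170 differed by -0.70 and AT3G25850 by -0.44, neither called.

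The response at 25.5 h minus that at 1.5 h was 3.91 for the Dof factor AT1G69570, 3.18 for BZIP61 and 2.44 for AT1G22330, 3 rises that were larger at the later harvest. AT1G69570 differed by 0.61 at 1.5 h, a call lost on leaving out any of 5 arrays. Among the falls the same difference was 1.94 for AT1G68620, 1.40 for AT3G08930 and 1.27 for AT1G67680. AT3G08930 fell by 0.46 at 1.5 h, a call lost without shade replicate 2 (adjusted p = 0.0762) and after centring on array medians (-0.21, adjusted p = 0.267), and was higher by 0.93 at 25.5 h.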

How the results depend on the processing

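Of the 117 called named features 29 kept their call under every alternative run. For the count of 2079, the 6 compared arrays alone gave 767, quantile normalization 1347, centring on reference genes 1315, the lectin level as a covariate 930 and control replicate 2 alone 302, the last 2 chosen after seeing the data. Leaving out 1 array gave 1281 to 1874, lowest without control replicate 3. The organ difference of 357 became 219 over all features of the array, 159 after quantile normalization, 230 and 154 after centring on medians and reference genes, 706 with array weights, 50 without the lectin-high controls and 116 with the covariate; 1 array left out gave 187 to 464. The time difference of 1499 became 650 and 975 under the last 2 settings, and 1110 to 1426 with 1 array left out; its upward share of 78.9% was 51.4%, 42.9% and 32.3% after quantile normalization and centring on medians and on reference genes. Changes turned in sign for AT1G52070 (0.353), IQD16 (0.098) and SCPL15 (0.316) without the lectin-high controls, and for AT1G52070 (0.323), AT2G25980 (0.063) and AT2G46140 (0.082) with the covariate. The causes were not tested. With the replicate number as a block 2275, 406 and 1664 were called for the shade response, organ and time; same-numbered arrays correlated at 0.093, -0.055 and 0.296, so the numbers are not shown to pair arrays. Signal over background can limit dim genes, and its part in the calls was not tested. Of the 5582 dimmest features 49 rose and 468 fell. Of the 5582 features of middle brightness 160 rose and 668 fell, and of the 5582 brightest 125 rose and 609 fell.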

Other observations

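IQ-domain proteins, which bind calmodulin and microtubules, gave 3 rises and 1 fall among 17 measured genes. Over all features 1.99% rose and 10.4% fell. The family was taken up after the values had been seen, so its share of rises is no test. IQD26 stood at 5.31, 5.58 and 5.78 in shade, against 4.87, 4.63 and 4.89 in control, and rose by 0.76 ± 0.19 (adjusted p = 0.00676), while at 25.5 h it differed by -1.14. Its call was lost without shade replicate 3 (adjusted p = 0.0516) and against control replicate 2 alone (adjusted p = 0.074). IQD28 rose by 0.51 and iqd21 by 0.81, and the call of IQD28 was lost on leaving out any of 2 arrays and that of iqd21 any of 4. IQD16 fell with the lectin-high controls, at 3.07, 3.99 and 3.50 in shade, against 5.67, 3.42 and 5.37 in control.

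TRM25 and TRM28, of the TON1 recruiting motif family that organizes cortical microtubules, moved apart. TRM25 stood at 7.33, 7.44 and 7.30 in shade, against 6.46, 6.32 and 6.37 in control, a rise of 0.97 ± 0.24 (adjusted p = 0.00597). TRM28 stood at 5.74, 5.73 and 5.49 in shade, against 6.41, 6.79 and 6.97 in control, a fall of 1.07 ± 0.16 on the log2 scale (adjusted p = 1.4e-05). Aurora kinase AUR2, of cell division, fell by 1.05 ± 0.21, with 5.70, 5.75 and 6.19 in shade and 6.76, 6.80 and 7.24 in control.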
